A study of Mus musculus with 15 samples.

Results

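The ATAC-seq experiment of this series comprised 2 of its 15 samples, replicates 1 and 2 of untreated EL4 cells. ATAC-seq (assay for transposase-accessible chromatin) cuts and tags open DNA with Tn5 transposase, so that a called interval marks a stretch of accessible chromatin. The members were all intervals of both lists on the 19 autosomes, which were 17101 intervals in replicate 1 and 18788 in replicate 2. Overlapping or adjoining intervals merged into 20273 peaks, of 169071 merged autosomal peaks over the 6 assays of the series. Of these ATAC-seq peaks, 14729 (72.7%) held an interval of both replicates and 5544 (27.3%) held intervals of one replicate only, with 1816 (8.96%) from replicate 1 and 3728 (18.4%) from replicate 2.

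EL4 is a mouse T lymphoblast line from a lymphoma of strain C57BL/6N, obtained from a cell bank and grown in culture with no treatment, and all samples share this 1 line. The study compared the openness of chromatin that carries different histone marks, and 12 of its samples have a list of called intervals, 2 each for ATAC-seq, H3K4me3, H3K9ac, H3K27ac, H3K36me2 and H3K27me3. The methods call the ATAC-seq replicates technical, so the spread between them covers less than the spread between cultures. The lists hold positions only, the read depth behind each interval is unknown, and no test was made on 2 technical replicates.

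Nucleosomes are shifted or evicted at active promoters and enhancers, and transcription factors bind the DNA laid bare there. H3K4me3 marks active promoters, H3K9ac and H3K27ac mark active promoters and enhancers, H3K36me2 spreads over gene bodies and intergenic stretches, and H3K27me3 is the mark of Polycomb repression. T cells keep the promoters of T-cell receptor signalling genes open, while genes of other blood lineages are mostly closed.

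To show the DNA behind these peaks, promoter windows of 5 T-lineage genes that both replicates touched are printed, beside those of 2 B-lineage genes that neither touched. The windows are those of RefSeq on GRCm38.p6, from 250 bases before to 50 after an annotated start, 5′ to 3′ on the strand of the gene. A gene can have several starts. The Lck window is at an internal one, 15269 bp inside the 5′ end of the gene span, and those of Lat and Cd5 lie 137 and 52 bp inside it. Capitals mark matches, on either strand, to any of 9 short motifs. The motif of ETS factors was searched as CCGGAA, that of RUNX factors as TGTGGT, that of GATA factors as AGATAA, the E-box as CAGGTG and that of TCF/LEF factors as TCAAAG. That of SP/KLF factors was searched as GGGCGG, that of NF-Y as CCAAT, that of NRF1 as GCATGCGC and the TATA box as TATAAA. In these windows every match stands as a separate run of capitals. A match is a string of letters and says nothing of binding.
Cd3g: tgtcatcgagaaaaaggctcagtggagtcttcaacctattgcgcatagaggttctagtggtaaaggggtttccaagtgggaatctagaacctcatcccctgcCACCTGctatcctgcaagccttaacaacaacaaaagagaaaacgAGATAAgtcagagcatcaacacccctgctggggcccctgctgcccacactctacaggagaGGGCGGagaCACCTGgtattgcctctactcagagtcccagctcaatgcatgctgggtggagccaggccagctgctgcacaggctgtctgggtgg
Lck: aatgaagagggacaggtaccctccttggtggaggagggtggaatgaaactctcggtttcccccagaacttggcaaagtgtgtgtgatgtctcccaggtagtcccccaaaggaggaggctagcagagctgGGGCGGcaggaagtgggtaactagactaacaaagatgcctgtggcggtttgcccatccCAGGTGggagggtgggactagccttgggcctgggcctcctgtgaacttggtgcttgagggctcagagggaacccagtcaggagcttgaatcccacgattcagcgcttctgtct
Zap70: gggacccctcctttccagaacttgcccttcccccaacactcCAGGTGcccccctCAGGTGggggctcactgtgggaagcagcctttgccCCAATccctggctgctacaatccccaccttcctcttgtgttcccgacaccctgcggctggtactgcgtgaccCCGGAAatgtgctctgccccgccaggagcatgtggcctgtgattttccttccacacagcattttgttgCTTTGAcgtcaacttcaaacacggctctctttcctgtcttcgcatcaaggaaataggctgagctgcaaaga
Lat: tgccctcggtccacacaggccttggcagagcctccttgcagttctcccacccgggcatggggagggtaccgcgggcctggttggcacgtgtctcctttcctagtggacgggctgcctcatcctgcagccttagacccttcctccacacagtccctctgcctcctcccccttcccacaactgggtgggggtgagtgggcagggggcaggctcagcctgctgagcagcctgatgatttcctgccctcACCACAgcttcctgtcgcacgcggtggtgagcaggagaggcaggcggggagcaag
Cd5: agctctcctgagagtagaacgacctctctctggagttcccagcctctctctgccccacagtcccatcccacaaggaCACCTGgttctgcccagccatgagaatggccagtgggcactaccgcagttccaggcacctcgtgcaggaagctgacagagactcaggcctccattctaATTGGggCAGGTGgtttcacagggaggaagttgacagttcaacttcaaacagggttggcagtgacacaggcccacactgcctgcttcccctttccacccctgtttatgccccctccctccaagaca
Cd79a: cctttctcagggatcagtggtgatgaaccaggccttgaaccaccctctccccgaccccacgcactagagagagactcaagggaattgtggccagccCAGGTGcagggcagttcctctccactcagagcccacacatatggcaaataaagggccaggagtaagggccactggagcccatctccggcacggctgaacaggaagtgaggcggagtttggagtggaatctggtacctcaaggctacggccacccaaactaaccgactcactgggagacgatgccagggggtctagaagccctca
Pax5: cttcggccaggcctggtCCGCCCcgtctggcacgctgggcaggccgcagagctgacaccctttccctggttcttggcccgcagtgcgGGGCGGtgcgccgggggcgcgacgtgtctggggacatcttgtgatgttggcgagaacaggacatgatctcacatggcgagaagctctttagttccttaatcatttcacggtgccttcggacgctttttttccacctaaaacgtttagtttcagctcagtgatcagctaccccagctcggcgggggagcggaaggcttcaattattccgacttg

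Cd3g, a chain of the CD3 complex (chr9:44980382-44980681, minus strand), had 199 bases of its window covered in replicate 1 and 201 in replicate 2, and held E-box, GATA and SP/KLF matches. Lck, the kinase that starts T-cell receptor signalling (chr4:129558323-129558622, minus strand), was covered over 300 and 289 bases. Zap70, the kinase recruited to the activated receptor (chr1:36761548-36761847, plus strand), was covered over 237 bases in both, with the same interval start in both replicates. Lat, the membrane adaptor that Zap70 phosphorylates (chr7:126369519-126369818, minus strand), was covered over all 300 bases in both, and its only match was to RUNX. Cd5, a surface receptor of T cells (chr19:10738925-10739224, minus strand), was covered over 195 and 257 bases. The windows of Cd79a, a chain of the B-cell receptor (chr7:24897247-24897546, plus strand), and Pax5, a factor of B-cell identity (chr4:44710645-44710944, minus strand), held no covered base in either replicate. The windows of these 5 open promoters held 3 to 10 CpG dinucleotides, against 8 in that of Cd79a and 23 in that of Pax5.

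The lists of both replicates were similar in size and in coverage. They covered 8.31 Mb in replicate 1 and 9.52 Mb in replicate 2, with 7.09 Mb in common, and the base pairs in common made up a fraction of 0.660 of those in either list. Replicate 2 had the longer list on 19 of 19 autosomes. The share of peaks touched by both replicates lay between 70.2 and 75.6% on every autosome.

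Peaks found in both replicates were built from wider intervals than those found in one. In replicate 1 the median width was 448 bp for the 15285 shared intervals and 231 bp for the 1816 unshared ones. In replicate 2 the medians were 494 bp for 15060 shared and 246 bp for 3728 unshared intervals. The difference was 232.5 ± 21.9 bp (mean ± SD, n = 2 replicates), which is larger than the spread between replicates. Shared intervals of both replicates lie in the same merged peaks. The 2 differences behind each such mean are therefore not independent, and their SD may understate the spread between replicates. Shared intervals had the larger median width on 19 of 19 autosomes in each replicate, by 183 to 267 bp in replicate 1 and by 214 to 292.5 bp in replicate 2. The shortest intervals in both lists were 200 bp wide, and intervals of exactly that width made up 27.3% of the unshared and 3.76% of the shared ones in replicate 1, and 21.8% and 2.29% in replicate 2.

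**Figure D1:**
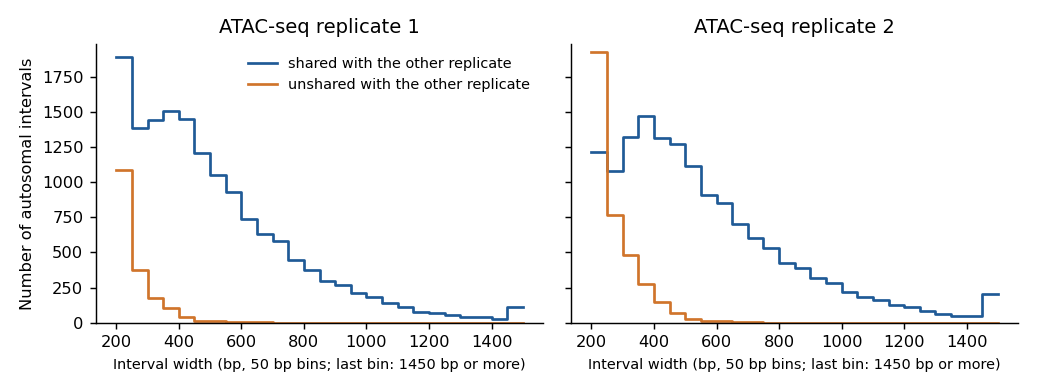
Number of autosomal ATAC-seq intervals (y axis) by interval width in base pairs (x axis, 50 bp bins) for intervals shared with the other replicate and unshared ones, with 1 panel per replicate. Unshared intervals pile up at the shortest widths, with medians of 231 and 246 bp, while shared intervals spread out with medians of 448 and 494 bp.

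The merged peaks ranged further. Peaks of both replicates had a median width of 550 bp (quartiles 407 and 770) and reached 7993 bp. Peaks of one replicate had a median of 242 bp (quartiles 202 and 299.25) and reached 858 bp. A merged peak of both replicates is the union of at least 2 intervals, so its width is larger by construction. The share of peaks touched by both climbed from 17.2% under 300 bp to 71.4% from 300 to under 400 bp, 93.9% from 400 to under 600 bp and 99.4% from 600 to under 1000 bp, and all 1659 peaks of 1000 bp or more were touched by both. By the width of each replicate's own intervals, the share found in the other replicate was 69.1% in replicate 1 and 46.0% in replicate 2 under 300 bp, and 98.7 and 94.7% from 400 to under 600 bp.

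The widest peaks lay outside protein-coding genes in 4 of 5 cases. No autosomal region was filtered out of the lists, and whether peaks this wide mark open chromatin was not tested. The widest, chr8:123426153-123434145, touched H3K4me3, H3K9ac, H3K27ac and H3K36me2 and lay 4138 bp from Tubb3, which encodes a tubulin. The peak at chr16:3231596-3238158 was 6563 bp wide and touched no mark, and the nearest protein-coding gene, Olfr161, was 354240 bp away. Peaks of 5090 bp (chr11:3100108-3105197) and 4263 bp (chr14:19415598-19419860) lay 26653 bp from Sfi1 and 113840 bp from Gm2244, and the fifth (chr9:124422485-124426035, 3551 bp) touched Gm20783 and LOC108167694. Of the 44 peaks of 2000 bp or more, all were touched by both replicates and 3 touched no mark. Among the widest peaks of one replicate were those in Ptpro (858 bp, replicate 2), Sall3 (821 bp, replicate 1), Rest (808 bp, replicate 2) and Fmc1 (792 bp, replicate 1), and the one in Fmc1 touched no mark.

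Accessible sites found in both replicates lay closer to the ends of genes. A gene end is here either boundary of the span of any annotated gene, so gene starts are included. The median distance to the nearest gene end was 264 bp for peaks of both replicates and 3997 bp for peaks of one, with 4116 bp for those of replicate 1 only and 3968.5 bp for those of replicate 2 only. A gene end lay inside 46.1% of the former and 8.08% of the latter. Within 1 kb of an end lay 57.5% of the peaks of both (95% exact binomial interval 56.7 to 58.3) and 27.7% of the peaks of one (26.5 to 28.9). These intervals cover counting error only. By replicate, the shares were 57.4% of shared and 27.6% of unshared intervals in replicate 1, and 57.5 and 27.7% in replicate 2. Peaks of both were the nearer ones on 19 of 19 autosomes.

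The distance and the width of a peak went together. Peaks at a gene end had a median width of 673 bp and 93.8% of them were touched by both replicates, while the classes farther away had median widths of 354 to 374 bp and shares of 59.1 to 61.9%. Within classes of merged width, the difference of 29.9 percentage points within 1 kb shrank to 1.51 points. Within classes of each replicate's own interval width it was 9.11 ± 1.56 points (mean ± SD, n = 2).

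Gene starts held the middle of many intervals. In replicate 1 the midpoint of 7718 of 16566 intervals (46.6%) lay within 1 kb of a start with a known strand, and in replicate 2 it was 7904 of 18201 (43.4%). The median offset was 3 bp upstream of the start in replicate 1 (-3 bp, quartiles -82 and 89) and 4 bp downstream in replicate 2 (quartiles -76 and 109). Of these midpoints, 76.8 and 75.5% lay within 200 bp of the start. These windows were given for 18 autosomes.

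By the window of 3 kb before to 2 kb after a start, 54.6% of the peaks of both replicates and 28.5% of the peaks of one were promoter-proximal. Proximal peaks of both nearly all touched H3K4me3 (97.6%), and 84.4% of the proximal peaks of one did. For the active marks the gap was wider at distal peaks. Among distal peaks, 80.7% of those of both and 52.4% of those of one touched H3K27ac, and 9.21% and 25.9% touched no mark.

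Most accessible sites carried the 3 active marks together. The set of H3K4me3, H3K9ac and H3K27ac without the others was touched by 9013 peaks (44.5%), and the same set with H3K36me2 by 5404 (26.7%). No mark was touched by 1846 peaks (9.11%), and H3K36me2 alone by 1038 (5.12%). The share of peaks touched by both replicates was 37.5% without any mark, 45.7% with 1 mark, 58.0% with 2, 81.3% with 3 and 82.0% with 4. Among the 149 peaks that touched H3K27me3 alone it was 36.2%, and all 5 marks met in 18 peaks.

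Shared accessible sites touched the active marks more often than unshared ones in both replicates. H3K4me3 was touched by 85.7% of shared and 51.0% of unshared intervals in replicate 1, and by 85.6 and 54.6% in replicate 2. For H3K9ac the shares were 84.3 and 48.2% in replicate 1, and 84.3 and 52.2% in replicate 2. For H3K27ac they were 89.8 and 57.7% in replicate 1, and 89.9 and 63.3% in replicate 2. The differences of 32.8 ± 2.59, 34.1 ± 2.83 and 29.3 ± 3.97 percentage points (mean ± SD, n = 2) were larger than the spread between replicates, and for each of these marks the merged peaks differed in the same direction on 19 of 19 autosomes. No mark was touched by 4.80% of shared and 23.7% of unshared intervals in replicate 1, and by 4.68 and 19.4% in replicate 2.

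**Figure D2:**
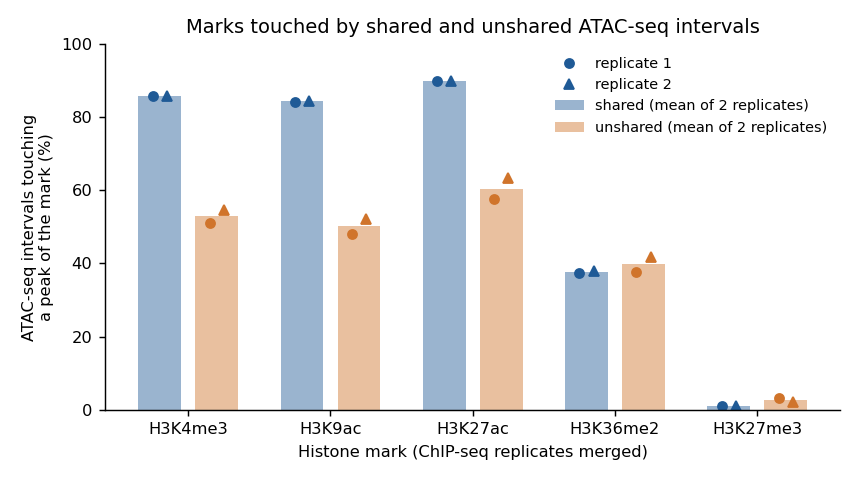
Percent of shared and unshared ATAC-seq intervals that touch a peak of each histone mark, with bars for the mean of 2 replicates and points for each replicate. H3K4me3, H3K9ac and H3K27ac lie at 84.3 to 89.9% in shared and 48.2 to 63.3% in unshared intervals, while H3K36me2 lies between 37.4 and 41.8% in all.

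The marks outside the active set behaved differently. H3K36me2 was touched by 37.4% of shared and 37.7% of unshared intervals in replicate 1, and by 38.1 and 41.8% in replicate 2. This difference of -2.01 ± 2.46 percentage points was smaller than the spread between replicates, and shared peaks had the higher share on 6 of 19 autosomes. H3K27me3 was rare, at 0.968% of shared and 3.14% of unshared intervals in replicate 1 and 0.976 and 2.17% in replicate 2. Shared peaks had the lower H3K27me3 share on 19 of 19 autosomes, and the difference was -1.68 ± 0.689 points. These counts were small, with 147 peaks of both replicates and 138 of one.

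The contrasts also moved with width. Among peaks of both replicates, H3K4me3 was touched by 54.8% under 300 bp and by 99.2% from 1000 bp, while H3K36me2 went the other way, from 42.5 to 34.8%, and so did H3K27me3, from 1.85 to 0.603%. Within classes of merged width the differences of the merged peaks were 5.13 points for H3K4me3, 3.78 for H3K9ac and 5.53 for H3K27ac, in place of 32.1, 33.4 and 28.4. Within classes of each replicate's own interval width they were 16.2 ± 4.29, 15.6 ± 5.20 and 15.1 ± 6.30 points. The class from 600 to under 1000 bp held only 8 unshared intervals in replicate 1 and 20 in replicate 2. For H3K36me2 the sign turned, to 1.75 points by merged width and to 0.296 ± 2.59 by interval width. How much of the contrast is due to width, or to read depth, which these lists do not give, was not tested.

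**Figure D3:**
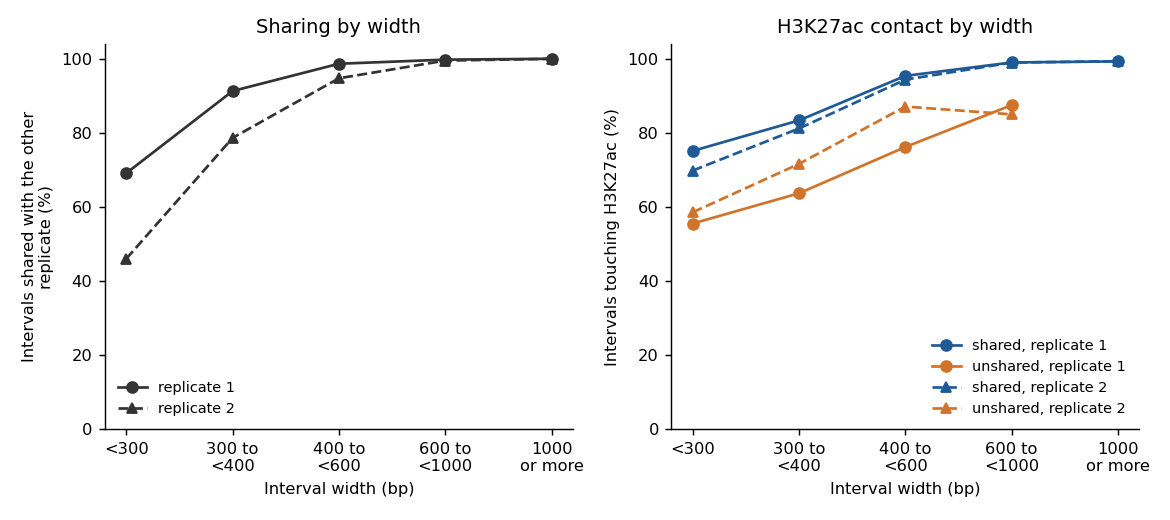
Left, the percent of each replicate's ATAC-seq intervals that are shared with the other replicate, by interval width in base pairs; right, the percent of shared and unshared intervals touching H3K27ac in the same width classes. Sharing climbs from 69.1 and 46.0% in the narrowest class to 100% in the widest, and shared intervals lie above unshared ones in each class that holds both.

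Promoter windows differed in base composition by their accessibility. Of 31365 windows on 18 autosomes, both replicates touched 8515 (27.1%), one replicate 696 (2.22%) and neither 22154 (70.6%). The median number of CpG dinucleotides was 24 in windows touched by both, 16 in those touched by one and 4 in those touched by neither. The G+C content followed, at medians of 63%, 58.3% and 49.3%. Windows touched by both made up 1.61% of those with 0 to 4 CpG, 8.40% with 5 to 9, 41.5% with 10 to 19, 65.4% with 20 to 29 and 67.9% with 30 or more.

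**Figure D4:**
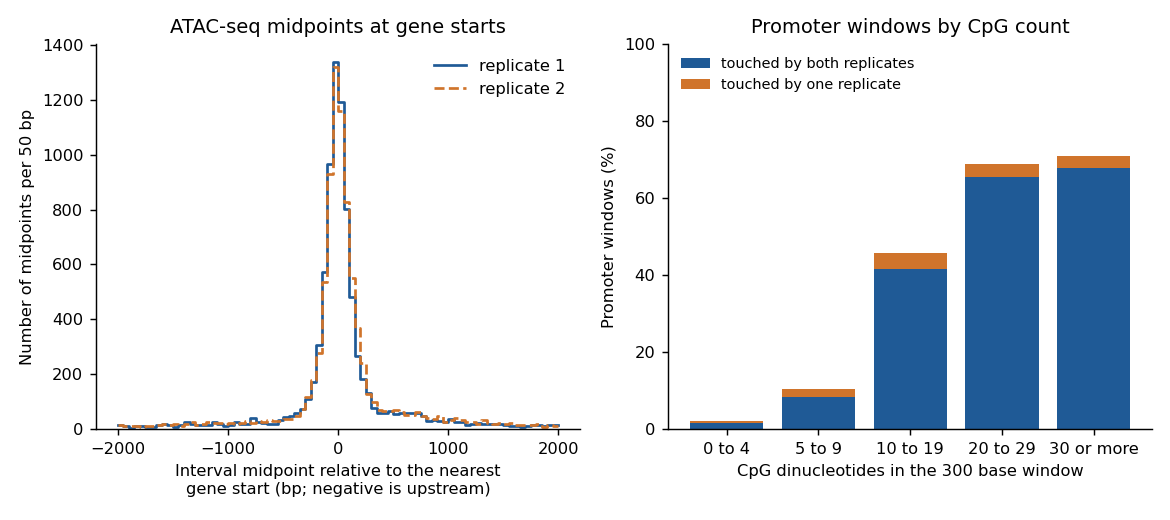
Left, number of ATAC-seq interval midpoints per 50 bp by distance from the nearest gene start (negative is upstream) in each replicate; right, percent of 300 base promoter windows touched by both replicates or by one, by the number of CpG dinucleotides. Midpoints centre on the start in both replicates, with medians of -3 and 4 bp, and the share of windows touched by both climbs from 1.61 to 67.9%.

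Motif shares are given against the share over all windows. The SP/KLF letters stood in 71.3% of the windows touched by both, 48.9% of those touched by one and 22.0% of those touched by neither, against 35.95% of all. The ETS letters stood in 34.7, 22.8 and 7.27%, against 15.1% of all, and the NRF1 letters in 6.34, 6.03 and 1.19%, against 2.69%. Both SP/KLF and ETS letters hold CpG, and so do those of NRF1. Windows touched by both had the higher SP/KLF and NRF1 shares in 4 of 5 CpG classes, and the higher ETS share in 5 of 5. The SP/KLF share was 13.7% in windows touched by both and 4.52% in those touched by neither at 0 to 4 CpG. It was 33.6 and 17.6% at 5 to 9 and 59.0 and 47.1% at 10 to 19. At 20 to 29 CpG it was 75.6 and 76.1%, and at 30 or more 88.0 and 87.6%. The ETS share at 20 to 29 CpG was 40.3 and 18.4%. At 30 or more CpG, ETS stood in 33.2 and 12.5%.

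When all CpG classes were pooled, RUNX, GATA and TCF/LEF letters, of families known from T cells, were not more common in accessible windows. The ETS family holds the T-lineage factor Ets1, and its letters went the other way. They stood in 34.7% of windows touched by both and 7.27% of those touched by neither. RUNX stood in 11.5% of windows touched by both and 18.7% of those touched by neither (16.7% of all), GATA in 4.71 and 13.8% (11.2% of all) and TCF/LEF in 10.5 and 18.1% (15.9% of all). Within CpG classes this pooled order did not hold throughout. RUNX was the more common in windows touched by both in 4 of 5 classes, from 28.9 against 22.0% at 0 to 4 CpG to 6.78 against 5.00% at 30 or more. TCF/LEF was so in 3 of 5 classes, with 17.2 against 13.1% at 10 to 19 CpG, and GATA in 2 of 5. The E-box letters stood in 16.3 and 22.0% (20.5% of all) and the TATA box in 5.18 and 17.0% (13.6% of all), and both were less common in windows touched by both replicates in each of the 5 classes. NF-Y letters stood in 39.8 and 36.7%, against 37.3% of all, but within CpG classes they were more common in windows touched by both in 4 of 5 classes, at 49.3 and 35.5% with 5 to 9 CpG, 47.9 and 33.8% with 10 to 19, 42.0 and 33.0% with 20 to 29 and 28.7 and 21.3% with 30 or more.

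Genes were given the peaks in their span plus 10 kb on each side. At least 1 peak lay there in 12142 of 20665 autosomal protein-coding genes (58.8%). A single peak was found in 5511 genes, 2 peaks in 3443, 3 in 1648, 4 in 777, 5 in 367, 6 to 9 in 366 and 10 or more in 30 (0.145%). The number of intervals was equal in both replicates in 62.8% of the genes with a peak, higher in replicate 2 in 23.7% and higher in replicate 1 in 13.5%. In 901 genes (7.42%) every peak came from one replicate only. Windows of neighbouring genes overlap, so that 21.7% of peaks were counted for 2 genes and 7.91% for 3 or more, and 17.0% lay in none.

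The genes with the most accessible sites were long. The 20 leading genes had a median span of 310 kb, against 17.5 kb for all protein-coding genes, and 11 to 18 peaks each. Of their peaks, 65.9% were touched by both replicates, against 76.5% over all genes, and 66.3% touched H3K36me2, against 41.1%. The shares over all genes count a peak once for each gene window. Over the merged peaks themselves they were 72.7 and 39.3%. Peaks of one replicate add to the count that ranked these genes, which favours a lower shared part. H3K27ac was touched by 85.5% (87.3% over all genes) and H3K4me3 by 70.7% (83.6%). Of the 18 leading genes with a window at a gene start, 12 had one touched by both replicates, against 40.1% (6605 of 16457) of all protein-coding genes with a window. Peaks at the start counted in the ranking, and 41.2% of all protein-coding genes had no peak, so the ranking itself favours a higher share.

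Gse1 (chr8:120228501-120581383) led with 18 merged peaks, 13 of them touched by both replicates. Replicate 1 had 13 intervals there and replicate 2 had 19, since several intervals of one replicate can join in 1 merged peak. H3K27ac and H3K36me2 were each touched by 16 of its peaks. Pde4d, a phosphodiesterase that breaks down cAMP, had 17 peaks over 1302 kb, with 12 intervals in replicate 1 and 15 in replicate 2, and its start window was touched by neither. Cdk6, the cyclin-dependent kinase of the G1 phase, had 16 peaks, 12 of them touched by both, with 15 and 14 intervals. Dlgap1, known as a scaffold protein of synapses, also had 16 peaks with 14 and 12 intervals, 10 of them touched by both, and its start window was touched by neither.

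Transcription regulators were among the leading genes. Ikzf1, which encodes the lymphoid factor Ikaros (chr11:11684962-11772930), had 14 peaks in the shortest span of the 20, 88.0 kb, with 13 intervals in replicate 1 and 12 in replicate 2. All 14 touched H3K36me2, 12 touched H3K27ac, and 9 were touched by both replicates. Foxp1, a forkhead factor, had 15 peaks, 12 of them touched by both, with 13 and 14 intervals. Rere, a nuclear receptor coregulator, had 15 peaks with 10 and 14 intervals. Zfhx3, a homeobox zinc finger factor, had 13 peaks, 11 of them touched by both, with 12 intervals in each replicate. Cux1, a homeodomain factor, had 11 peaks with 10 intervals in each replicate, and all 11 touched H3K36me2.

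The remaining leading genes had 11 to 15 peaks each. The phosphatases Ppm1h and Ptprj had 15 and 14 peaks, with 8 of them touched by both replicates in each gene. Camk2d, a subunit of calcium/calmodulin-dependent kinase II, had 14 peaks with 10 and 12 intervals, and 2 of them touched no mark. Arhgap26, a GTPase-activating protein, had 14 peaks with 8 and 13 intervals, and 1 of these peaks touched H3K27me3. Myo1e, a class I myosin, had 12 peaks and Ppp1r16b, a regulatory subunit of protein phosphatase 1, had 11. Ube2cbp, Scfd2 and Jazf1 had 13 peaks each. Tex14, a gene of germ cell bridges, had 11 peaks, 10 of them touched by both. Of all 11 peaks, 0 touched H3K36me2 and 4 touched no mark. Fam155a closed the list with 11 peaks, 7 intervals in replicate 1 and 12 in replicate 2, and Elmo1 with 11 peaks, 4 of them touched by both, came next.

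**Figure D5:**
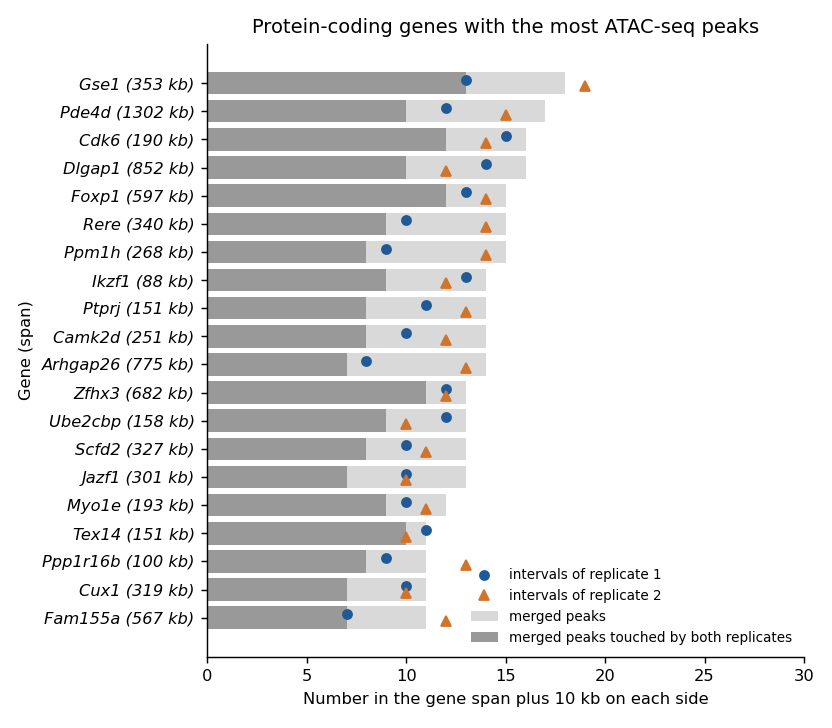
Number of ATAC-seq peaks (x axis) in the span plus 10 kb on each side of the 20 leading protein-coding genes (y axis, span in kb), with bars for merged peaks and for those touched by both replicates and points for the intervals of each replicate. Gse1 leads with 18 merged peaks, of which 13 are touched by both replicates, and the replicates differ most in Gse1 with 13 and 19 intervals.

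The order was partly set by which peaks were counted. Of the 20 leading genes, 13 were also among the 20 with the most peaks touched by both replicates, 17 among the first 20 by replicate 1 alone and 18 by replicate 2 alone. Ties were common at the last place, and with all tied genes counted these numbers were 16, 18 and 20. The 30 genes with 10 or more peaks became 7 when peaks touched by both replicates were counted, 525 with 50 kb on each side, and 18 without replicate 2.

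By peaks per length of the window, other genes led. Among genes with at least 8 peaks, Junb, a subunit of the AP-1 factor, had 41.2 peaks per 100 kb (9 peaks, 6 of them touched by both, with 9 intervals in each replicate). Its neighbour Prdx2, a peroxiredoxin, had 35.7 per 100 kb in an overlapping window. Irf2bp2, a transcriptional corepressor, had 35.0 per 100 kb, with 8 intervals in replicate 1 and 7 in replicate 2, and all 9 of its peaks touched H3K36me2. Hoxd8, a homeobox factor, had 34.3, with 8 peaks of which 4 were touched by both. Ubtf, a factor of ribosomal RNA transcription, had 23.0, with 8 of 9 peaks touched by both. Kdm6b, a demethylase of H3K27, had 21.5, and Stat6, which carries interleukin-4 signals, had 21.0. A630095N17Rik (28.1), LOC102634078 (26.0) and the telomere gene Ctc1 (19.4) completed the 10 densest. Density fell with span over all genes, from a mean of 3.30 peaks per 100 kb in genes of up to 10 kb to 0.401 in those over 300 kb.

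Genes that mark the T lineage were accessible. All 12 T-lineage markers had at least 1 peak, against 58.8% of all protein-coding genes. A peak touched by both replicates was found in 11 of them and in 11 of 12 T-lineage transcription factors, against 54.4% of all genes. The median span of these factors was 90.9 kb, and 70.5% of all genes of over 50 to 100 kb had a peak. Cd3g had 5 peaks and Cd3d 3, with as many intervals in each replicate, and their windows overlap. Cd3e, another chain of the same complex, had 1 peak, found in replicate 1 only. Cd5 had 5 peaks, of which 2 were touched by both replicates, with 2 intervals in replicate 1 and 5 in replicate 2. Among the factors, Runx1 had 9 peaks with 6 and 8 intervals, Lef1 had 6 with 3 and 6, and Gata3 had 4 with 3 in each replicate. Satb1, a chromatin organiser of thymocytes, had no interval in either replicate. Start windows were touched by both replicates in 5 of 8 T-lineage markers and 7 of 10 T-lineage factors with a window, against 40.1% over all genes.

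Markers of other cell types had no peak at the start windows that could be read, while some had peaks nearby. Of these 39 genes, 28 had a window and 11 had none. A peak lay in the window of 4 of 10 B-lineage genes, 6 of 9 myeloid, 2 of 6 erythroid, 2 of 8 neural and 1 of 6 epithelial and liver genes, so the myeloid share was not below the 58.8% of all genes. Of the start windows of these lists, 0 of 6, 0 of 6, 0 of 4, 0 of 7 and 0 of 5 were touched by either replicate. Over all protein-coding genes with a window, 40.1% were touched there by both replicates, and 70.6% of all windows were touched by neither. The B-lineage genes Pax5 and Ebf1 had no interval in either replicate. Cd79a had 3 peaks, all touched by both replicates, and none of them lay in its span. Spi1, which encodes the myeloid factor PU.1, had 4 peaks within its span, 3 of them touched by both, and 2 touched no mark. Cell share and openness per cell cannot be told apart in these bulk lists.

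Genes used by most cells and the enzymes that set the marks were accessible. All 9 housekeeping genes had a peak, against 58.8% of all protein-coding genes, and all 7 with a window were touched at the start by both replicates, against 40.1%. All 27 writers and erasers of the 5 marks had a peak touched by both replicates, against 54.4% of all genes, and 12 of 16 with a start window had one touched by both. Their median span was 65.9 kb, and 70.5% of all genes of over 50 to 100 kb had a peak. Among them Kdm6b had 9 peaks with 7 intervals in replicate 1 and 9 in replicate 2, and Setd1b, a methyltransferase of H3K4, had 8 with 9 and 7. Ezh2, Eed and Suz12, the core of the Polycomb complex that sets H3K27me3, had 1 peak each, found in both replicates. Of 79 genes of cytosolic ribosomal proteins, 74 (93.7%) had a peak, and 50 of 59 with a start window had one touched by both.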

How the data were processed

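According to the methods, the authors used STAR 2.5 for alignment and called intervals for each replicate on its own, with macs2 for ATAC-seq and narrow marks and with Epic for broad marks. The labels and the methods give different tagmentation times and read lengths. The deposited lists hold positions in 3 columns (chromosome, start, end, in base pairs) and neither scores nor counts, on GRCm38 per the labels. Groups came from sample titles.

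Intervals on 19 autosomes were merged where they overlapped or adjoined, and a peak of both replicates holds an interval of each. Touching means at least 1 bp. Marks were the merged intervals of both ChIP-seq replicates. Gene positions are those of RefSeq on GRCm38.p6. Promoter windows matched 16457 protein-coding genes. Shares carry exact binomial intervals at 95%, and differences between shared and unshared intervals are given per replicate with mean ± SD (n = 2). These SDs come from differences that are not independent, since shared intervals of both replicates lie in the same merged peaks.

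Genes named are the 20 with the most peaks in their span plus 10 kb on each side (ties by peaks of both replicates, then the shorter span), the 10 densest with at least 8 peaks, those at the 5 widest peaks of each class and those of 13 lists. Some genes that this rule selects are not reported here. The members and lists were chosen with earlier results of these data known. Alternatives were a merging distance of 200 bp, intervals of at least 300 bp, an overlap of 50%, chromosome X, midpoints, width classes, protein-coding or all genes, other flanks, base pairs in both ChIP-seq replicates and each replicate left out. Counting was checked on simulated data and against bedtools 2.31.1. Scripts ran in Python 3.11.15 and used pandas 2.3.3, numpy 2.4.6, matplotlib 3.10.9 and scipy 1.17.1.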

Additional observations from a re-analysis of the deposited data

Results flagged for a closer look

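Chromosome X was left out of the values above, yet both lists hold intervals there, 418 in replicate 1 and 467 in replicate 2. Per the methods, reads on the sex chromosomes were discarded. The 10 ChIP-seq lists hold 331 to 732 intervals on chromosome X as well. No control library with a list was used, so these counts have no background.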

How the results depend on the processing

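Merged peaks numbered 14767 with intervals of at least 300 bp and 17101 to 20771 under the other alternatives, within 1.5 times of 20273. The share touched by both replicates lay between 71.8 and 74.5%. The direction of the width, gene end, H3K4me3, H3K9ac, H3K27ac and H3K27me3 differences held under each alternative tried. Differences are in percentage points, peaks of both replicates minus peaks of one. Intervals of at least 300 bp gave a width difference of 200 bp and differences of 29.6 within 1 kb of a gene end, 22.5 for H3K4me3, 24.2 for H3K9ac and 18.1 for H3K27ac. The gene end difference was 29.8 with an overlap of at least 50%, 29.9 with chromosome X, 30.3 with protein-coding genes and 28.9 with the 200 bp around each midpoint. Its replicates differed by so little that these small shifts exceed their spread. Within classes of merged width the differences were 1.51 for gene ends and, for H3K4me3, H3K9ac, H3K27ac and H3K27me3 in turn, 5.13, 3.78, 5.53 and -0.693, and that of H3K36me2 turned to 1.75. Within classes of each replicate's own interval width, chosen after seeing the data, they were 9.11, 16.2, 15.6, 15.1 and -1.12, and that of H3K36me2 turned to 0.296. H3K36me2 also moved to -5.69 with midpoints and to -5.09 with base pairs in both ChIP-seq replicates, where H3K27me3 moved to -0.617. The causes were not tested. With all annotated genes, 18278 had a peak. Genes with 10 or more peaks numbered 525 with 50 kb on each side, 7 with peaks of both replicates, and 18 to 25 with one ATAC-seq replicate left out.

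No paired analysis was possible because no result comes from a test. The lists give no score or depth, and the replicates are technical. Whether width stands in for strength was not tested. How near a missing interval lay to the caller's threshold is not shown by these lists.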

Other observations

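Gene families that are silent in most cells were nearly without accessible sites. Of 1100 olfactory receptor genes, 28 (2.55%) had an ATAC-seq peak in their span plus 10 kb on each side, against 58.8% of all protein-coding genes, and 0 of 934 with a start window were touched there by either replicate, against 40.1% touched by both over all genes. Of 49 keratin genes, 3 (6.12%) had a peak, and 0 of 35 start windows were touched. The median span was 0.95 kb for the olfactory receptor genes and 7.42 kb for the keratin genes. Among all genes of up to 10 kb, 43.6% had a peak.

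The Hox genes lie in clusters, and their windows overlap and share peaks. A peak was counted for 30 of 39, where the share over all genes was 58.8%. Their median span was 3.74 kb, and 43.6% of all genes of up to 10 kb had a peak. A peak touched by both replicates was counted for 23 of 39, where the share over all genes was 54.4%. A start window was touched by both in 2 of 22, against 40.1% over all genes. Hoxd8 and Hoxd3 had 8 peaks each, with 5 intervals in replicate 1 and 7 in replicate 2. Hoxc10 had 4 peaks and Hoxc9 had 3, with 1 interval in replicate 1 each, and 3 peaks at each gene touched H3K27me3.

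Peaks of one replicate lay nearer to another ATAC-seq peak than those of both, at a median of 6205.5 bp against 10271 bp. Another peak lay within 10 kb of 58.1% of the peaks of one replicate, against 49.5% of those of both. A peak of both can join several neighbouring intervals of a replicate, which takes close neighbours out of that class by construction. How much of the difference this makes was not tested. Across autosomes there were 69.4 to 127 peaks per 100 protein-coding genes.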
